A study of Canis lupus familiaris with 13 samples.

Results

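Of 32 genes of endoplasmic reticulum (ER) stress and protein folding, 3 were lower in primary tumours of dogs with metastatic soft tissue sarcoma. Among all named genes 3.7% were lower. The 3 were EDEM2 and HERPUD1, both of ER-associated degradation, and DNAJC3. Of the 3 probe sets of EDEM2, 1 did not fall. In 13 fits that each left out 1 tumour, the call of HERPUD1 was lost in 1 and that of DNAJC3 in 9. DNAJC3 also did not pass, at its probe set of highest mean, within the set of arrays that held both groups. The other 29 genes, among them the chaperones HSPA5 and HSP90B1 and the stress transcription factors XBP1, ATF4 and DDIT3, did not pass the test at the probe set chosen for each gene. The genes were picked by symbol, as known components of the ER stress response and of the folding machinery, with earlier results of these data known. All 32 were found among the 15115 genes that the array annotation names. They were read by 70 of the 42924 probe sets tested, a probe set being the group of short probes that reads 1 transcript. Of the genes, 21 had several probe sets and 11 had 1. Each gene is given at its probe set of highest mean, and its other probe sets are named where they differ in call or in sign.

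Soft tissue sarcomas are malignant tumours of connective tissue. The metastatic group held 5 primary tumours (MET1 to MET5) and the non-metastatic group held 8 (NM1 to NM8) from cases without metastasis for at least 1 year. All were untreated, and the tissue was bulk biopsy material hybridised to an Affymetrix canine array. The labels give no breed, age, subtype or grade, and do not say whether each tumour came from a different dog, so every p-value describes the spread of these biopsies, which may be partly technical. In bulk tissue, fewer cells of a type and less RNA per cell cannot be told apart.

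Secreted and membrane proteins fold in the ER with the help of chaperones, lectins and disulfide isomerases. When unfolded proteins accumulate, the membrane sensors IRE1 (ERN1), PERK (EIF2AK3) and ATF6 start the unfolded protein response, which raises chaperones, slows translation and expands ER-associated degradation (ERAD), the route by which misfolded proteins are drawn back to the cytosol and destroyed. Fibroblast-like cells, which secrete much collagen, and plasma cells depend strongly on this machinery.

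Values are log2 intensities, so a difference of 1 is a doubling, and all differences are metastatic minus non-metastatic. Sample medians lay between 6.71 and 6.94. The labels name no batch, but the arrays differed in their spike-in controls and were sorted by them, after the values were seen, into 3 array sets. Array set A holds the 5 metastatic tumours and NM5 to NM8, array set B holds NM1, NM3 and NM4, which lack spike-in signal, and array set C holds NM2, whose spike-in signal is strongly 3′-biased. What the sets stand for is not given in the labels. Array sets B and C hold no metastatic tumour, so each result is also given within array set A (5 against 4 tumours). Spike-in probe sets on the arrays of array set B, which carried no spike-in signal, ran from 2.63 to 7.16, and a value not above 7.16 is not told apart from that range. Neither group mean was above it for 6 members (ERN1, ATF6, TRIB3, CREB3L2, EDEM1 and EDEM3), so the size of their differences is not exact. The tissue label was checked against 12 mesenchymal markers such as VIM and COL1A1. All 12 were above this range, while all 6 measured epithelial markers were not above it in either group.

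Over all tumours 3 of the 32 members were lower and 0 were higher in metastatic tumours (limma, adjusted p under 0.05). Among all named genes 3.7% were lower and 1.65% higher. In either direction 5.35% of named genes passed. At an unadjusted p under 0.05, 5 members were lower and 3 higher, where 12% of named genes were lower and 12% higher. Of the 70 member probe sets 6 passed, all lower, where 4.9% of all probe sets passed in either direction and 3.34% were lower. The median difference of the members was -0.15, against 0.05 over all named genes, and 26 of the 32 differed by less than 0.5 in either direction. Within array set A 2 members were lower and 0 higher, where 2.24% of all named genes were lower and 0.576% higher, with 2.82% passing in either direction. At an unadjusted p under 0.05, 4 members were lower and 1 higher within array set A, where 11.3% of named genes were lower and 8.92% higher. Of the member probe sets 5 passed within array set A, all lower, where 2.78% of all probe sets passed in either direction and 2.2% were lower. The member median within array set A was -0.11, against 0.03 over all named genes. The counts over all tumours rested in part on single tumours: without MET1, 1 member was lower (EDEM2) and 1.99% of all probe sets passed, and without NM2, 4 members were lower (EDEM2, HERPUD1, DNAJC3 and XBP1), 1 was higher (SEC24D) and 10.4% of all probe sets passed.

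**Figure D1:**
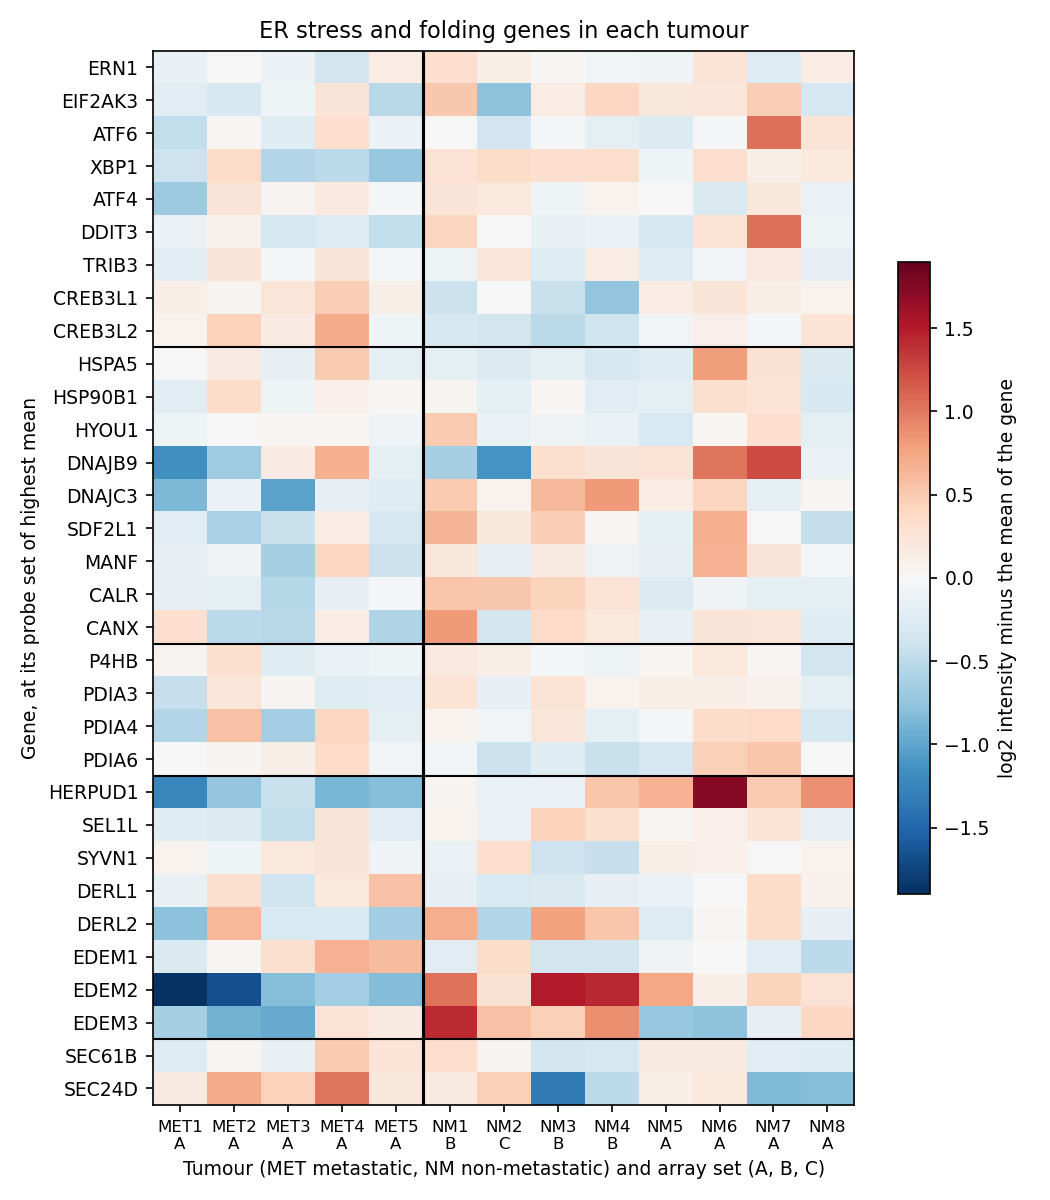
Each cell shows the log2 intensity of a member (row, at its probe set of highest mean) in a tumour (column) minus the mean of that gene over the 13 tumours, with red above and blue below. Horizontal lines separate sensors and transcription factors, chaperones, disulfide isomerases, ERAD, and translocation and export, and the vertical line separates the groups. EDEM2 is blue in all 5 metastatic tumours and red in every non-metastatic one, and no other row splits in this way. HERPUD1 and DNAJC3, among others, are blue in all 5 metastatic tumours but also in some non-metastatic ones.

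**Figure D2:**
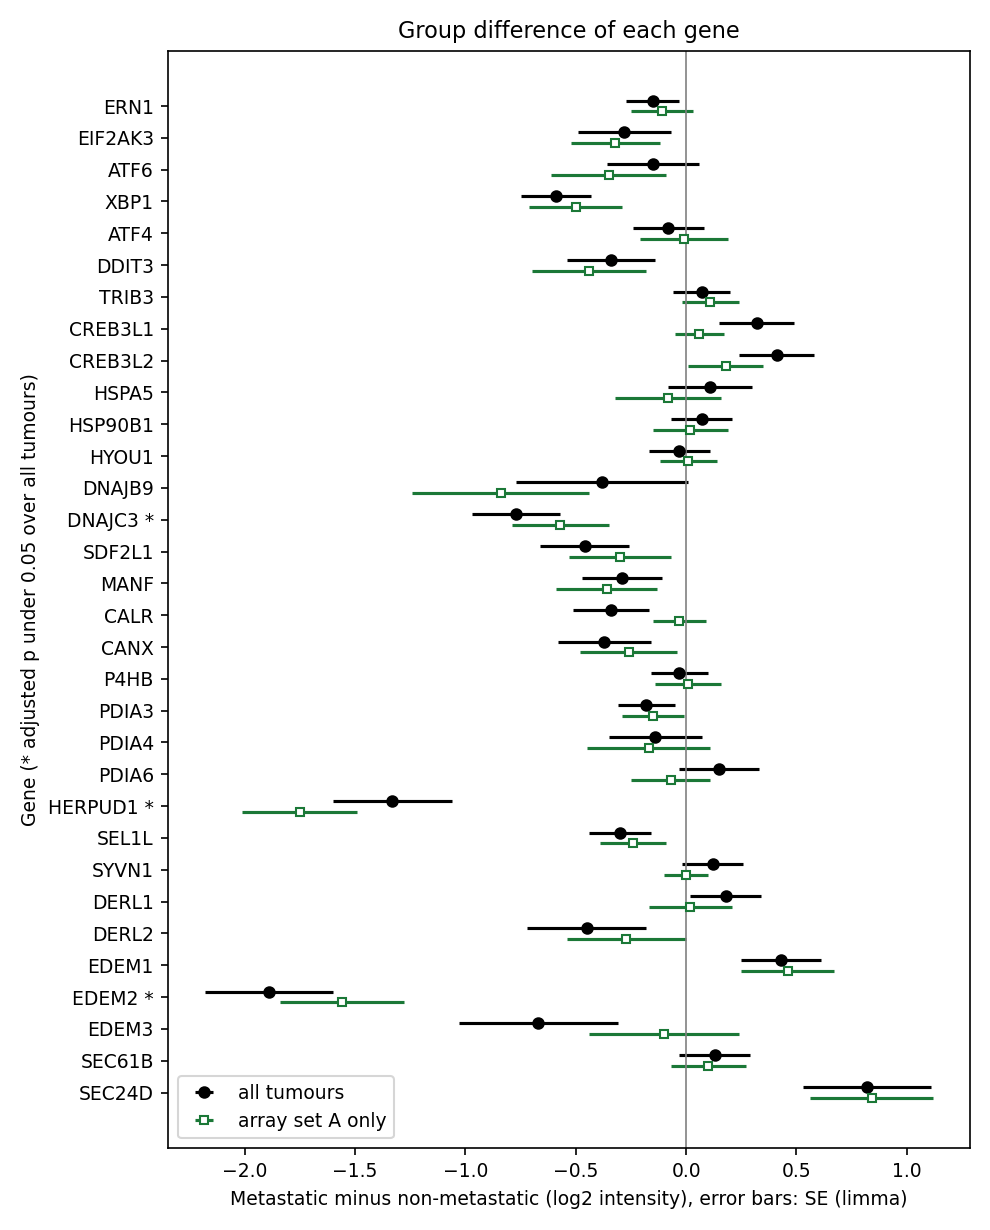
Points show the metastatic minus non-metastatic difference of each member in log2 intensity with its SE from limma, as filled circles over all 13 tumours and as open squares within array set A. EDEM2 (-1.89 and -1.56) and HERPUD1 (-1.33 and -1.75) lie far to the left in both, and DNAJC3 lies at -0.77 and -0.57.

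EDEM2, which helps to mark misfolded glycoproteins for ERAD by trimming mannose, had the largest difference of all members. Its log2 intensity (gene identifier 477209) was 7.53, 7.74, 8.60, 8.77 and 8.59 in MET1 to MET5, and 10.44, 9.70, 10.92, 10.84, 10.15, 9.54, 9.84 and 9.69 in NM1 to NM8. Every metastatic tumour lay below every non-metastatic one. EDEM2 fell by 1.89 ± 0.29 (SE), from 10.14 ± 0.54 (SD, n = 8) to 8.25 ± 0.57 (SD, n = 5), which is 3.72-fold lower, with a limma adjusted p of 0.00384. The call was kept in all 13 fits without 1 tumour. EDEM2 also fell within array set A, by 1.56 ± 0.28 (SE, limma adjusted p = 0.0242). That call was lost without NM5 (-1.44), NM7 (-1.55) or NM8 (-1.60), with limma adjusted p of 0.065, 0.0568 and 0.0804. The non-metastatic tumours of array set A were themselves 0.93 lower than those of array set B (limma adjusted p = 0.0141).

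The probe sets of EDEM2 did not give the same picture. The lowest of its 3 probe sets by mean level also fell, by 1.47 ± 0.27 (SE, limma adjusted p = 0.0102), from 8.24 to 6.76, and by 1.53 within array set A (limma adjusted p = 0.0404). The metastatic mean of 6.76 was not above 7.16, so the size of this fall is not exact. Over all tumours its groups touched, with MET4 at 7.44 above NM2 at 7.40. The second read 8.27, 8.62, 8.28, 8.08 and 8.55 in MET1 to MET5 and 7.95 to 8.41 in non-metastatic tumours, and its groups overlapped. Its difference was 0.16 ± 0.12 (SE, limma adjusted p = 0.439), with a 95% interval of -0.11 to 0.42 that excludes a fall of the size seen at the chosen probe set. Which transcripts of EDEM2 each probe set binds is not given in the sources used here.

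HERPUD1 encodes an ER membrane protein that assembles the ERAD ubiquitin ligase complex and is a classical target of the unfolded protein response. It read 9.71, 10.22, 10.53, 10.09 and 10.15 in MET1 to MET5 (gene identifier 478116), and from 10.83 through a median of 11.46 to 12.68 in non-metastatic tumours. The groups did not overlap, and NM6 was the highest. HERPUD1 fell by 1.33 ± 0.27 (SE), from 11.47 ± 0.61 (SD, n = 8) to 10.14 ± 0.29 (SD, n = 5), a level 2.51-fold lower (limma adjusted p = 0.017). Within array set A it fell by 1.75 ± 0.26 (SE, limma adjusted p = 0.0129), a call kept in all 9 fits of that array set without 1 tumour. Over all tumours the call was lost without MET1, where the difference was -1.22 (limma adjusted p = 0.0523). The other probe set fell by 1.41 ± 0.29 (SE, limma adjusted p = 0.0171) and differed by -1.72 within array set A, where it also passed (limma adjusted p = 0.0172). At this probe set MET3 at 9.19 and MET5 at 9.11 lay just above NM2 at 9.10. EDEM2 and HERPUD1 were the 2 of 32 members without overlap at the chosen probe set. Of all named genes 1.61% had every metastatic tumour below every non-metastatic one, and 1.35% had every one above, where 0 members did.

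**Figure D3:**
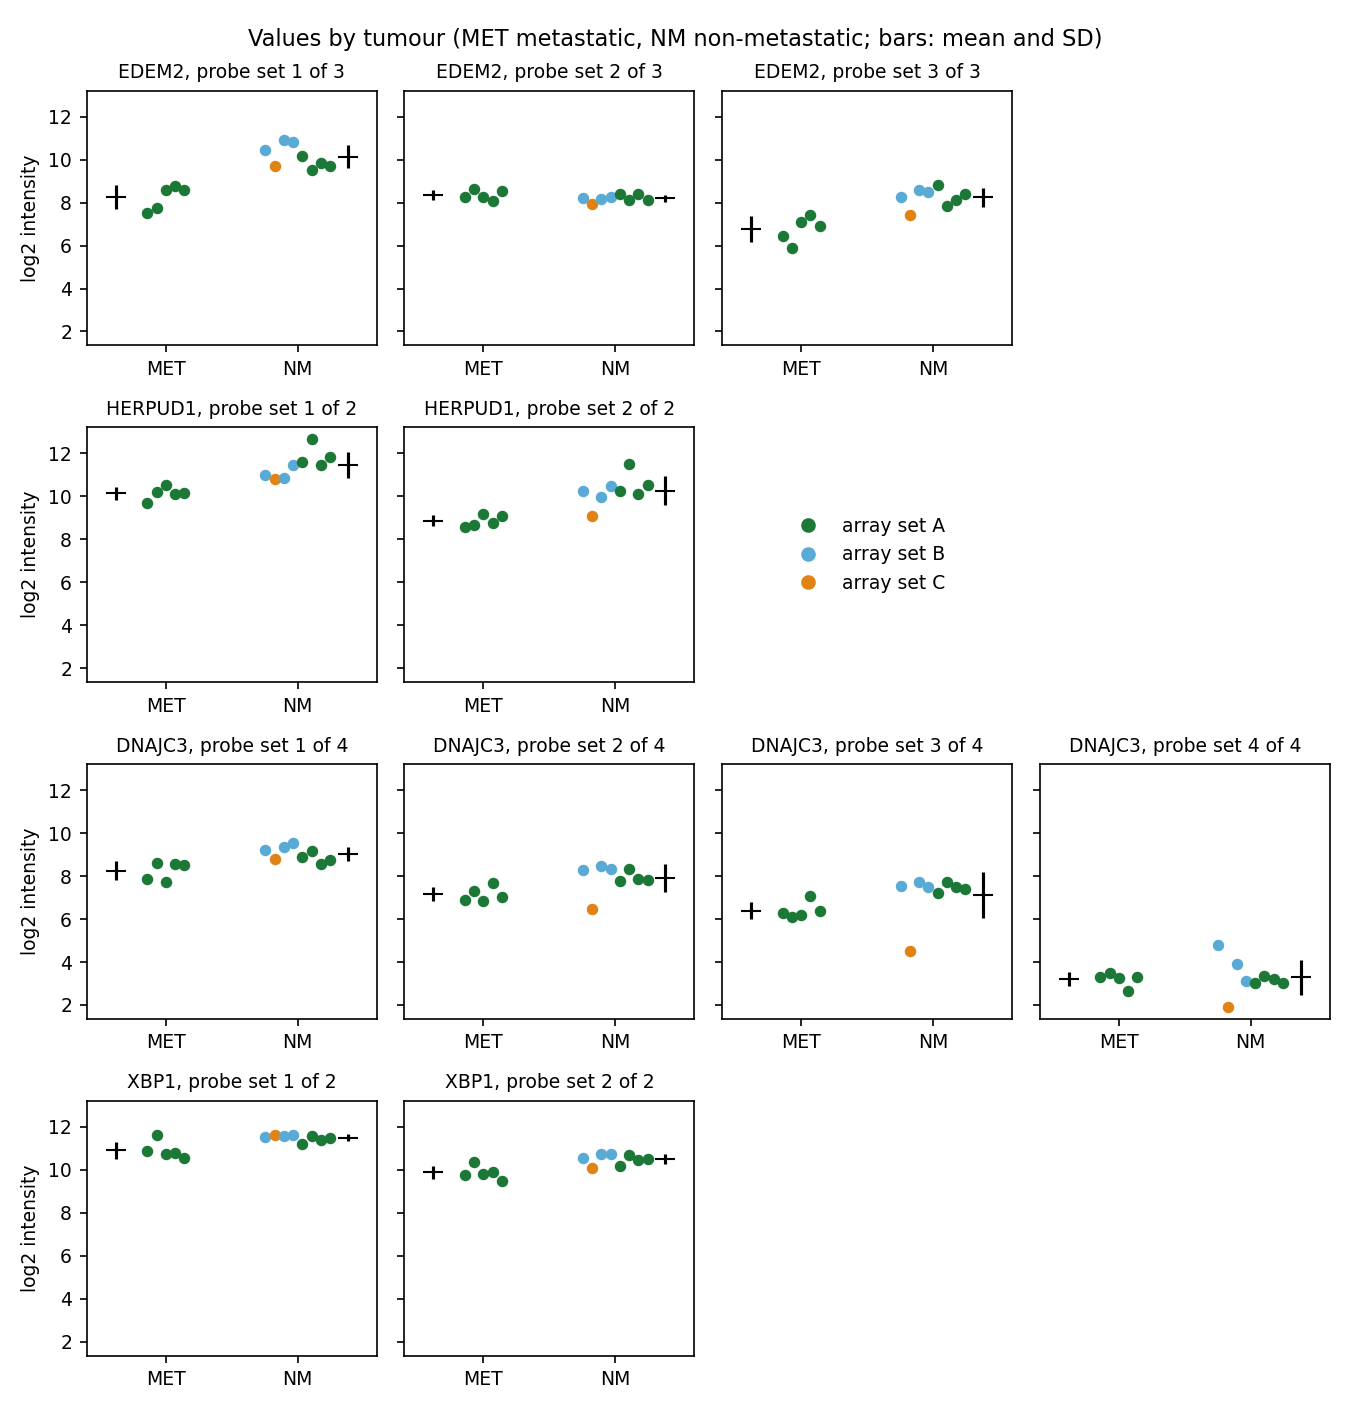
Each panel shows 1 probe set, numbered by mean level, with 1 point per tumour coloured by array set and the mean and SD of each group as a bar. Probe sets 1 and 3 of EDEM2 and both of HERPUD1 are lower in metastatic tumours, while probe set 2 of EDEM2 is level between groups. NM2, the tumour of array set C, is the lowest point at probe sets 2 to 4 of DNAJC3.

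The remaining ERAD members were SEL1L and SYVN1, the core of the ubiquitin ligase, the derlins DERL1 and DERL2, which help substrates out of the ER, and the mannosidase relatives EDEM1 and EDEM3. None passed. The 8 ERAD members had a median difference of -0.38. SEL1L differed by -0.30 ± 0.14 (SE, limma adjusted p = 0.212), and all 3 of its probe sets were negative. DERL2 differed by -0.45, DERL1 by 0.18 and SYVN1 by 0.12, and the probe sets of SYVN1 had both signs. EDEM1 differed by 0.43 ± 0.18 (SE, limma adjusted p = 0.17), with a 95% interval of 0.05 to 0.81. EDEM3 differed by -0.67 ± 0.36 (SE, limma adjusted p = 0.273) over all tumours and by -0.10 within array set A. It was 1.23 lower in the non-metastatic tumours of array set A than in those of array set B (limma adjusted p = 0.0364).

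Of the 9 chaperones and co-chaperones 1 was lower, DNAJC3, a co-chaperone of HSPA5 that also inhibits PERK. It read 7.88, 8.63, 7.72, 8.58 and 8.50 in MET1 to MET5 and from 8.55 through a median of 9.01 to 9.54 in non-metastatic tumours. Only the ranges' edges overlapped, with MET2 and MET4 above NM7. DNAJC3 fell by 0.77 ± 0.20 (SE), from 9.03 ± 0.34 (SD, n = 8) to 8.26 ± 0.43 (SD, n = 5), with a limma adjusted p of 0.046. Its difference within array set A was -0.57 ± 0.22 (SE) and did not pass (limma adjusted p = 0.198). The call over all tumours was also lost in 9 of the 13 fits without 1 tumour, those without MET1, MET3, MET5, NM1, NM3, NM4, NM5, NM6 or NM8, with differences from -0.83 to -0.64 and limma adjusted p from 0.0599 to 0.116.

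Of the other probe sets of DNAJC3 none passed over all tumours. The second differed by -0.75 over all tumours and by -0.77 within array set A, and passed in neither. The third passed within array set A only (-1.07, limma adjusted p = 0.0308). There the non-metastatic mean was 7.45, while the metastatic mean of 6.39 was not above 7.16, so the size is not exact. Over all tumours this probe set differed by -0.75, with neither group mean above 7.16. NM2 read 4.53 at it and the other non-metastatic tumours 7.20 to 7.74. At the second probe set NM2 read 6.47, again the lowest. The fourth read 1.89 to 4.78, all below 7.16. The control probe sets of ACTB give an excess of 3′ over 5′ signal, which was 3.14 in NM2 and 1.40 to 2.87 in metastatic tumours. It was 1.23 to 2.24 in the non-metastatic tumours of array set A and 0.39 to 0.88 in those of array set B. The spike-in controls of NM2 had an excess as well (3.64). RNA quality and array set therefore cannot be told apart in this measure. With this excess as a covariate DNAJC3 differed by -0.73 and did not pass (limma adjusted p = 0.0881), while EDEM2 (-1.66) and HERPUD1 (-1.38) did (limma adjusted p = 0.00383 and 0.0262).

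HSPA5 (BiP), the main Hsp70 chaperone of the ER and the usual readout of ER stress, did not differ between groups beyond its spread. It read 12.29, 12.45, 12.14, 12.80 and 12.13 in MET1 to MET5, and from 11.99 through a median of 12.10 to 13.09 in non-metastatic tumours. The highest values were those of NM6, MET4 and NM7 (12.58), so both groups held high tumours. The difference was 0.11 ± 0.19 (SE, limma adjusted p = 0.755), with a 95% interval of -0.31 to 0.52, and it was -0.08 within array set A and -0.17 at the other probe set. HSP90B1 (GRP94), the Hsp90 of the ER, read 11.66, 12.22, 11.79, 11.97 and 11.91 in MET1 to MET5 and from 11.56 through a median of 11.80 to 12.18 in the others. MET2 was the highest and NM8 the lowest, and the groups overlapped. The difference was 0.07 ± 0.14 (SE, limma adjusted p = 0.786), with a 95% interval of -0.23 to 0.37.

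The remaining chaperones did not pass either. HYOU1, a large Hsp70 relative that serves HSPA5 as a nucleotide exchange factor, differed by -0.03. DNAJB9 (ERdj4), an HSPA5 co-chaperone, differed by -0.38 and by -0.84 within array set A. It varied widely in both groups, from 7.61 in MET1 to 10.01 in NM7. SDF2L1, which works with HSPA5 and its J-domain partners, differed by -0.46 ± 0.20 (SE, limma adjusted p = 0.183), and its other probe sets by -0.87 and -0.96, which did not pass (limma adjusted p = 0.0925 and 0.108). MANF, a small secreted ER stress protein, differed by -0.29. The lectin chaperones CALR and CANX, which hold glycoproteins during folding, differed by -0.34 and -0.37. For CALR the difference within array set A was -0.03, and its non-metastatic level was 0.58 lower in array set A than in array set B (limma adjusted p = 0.0134).

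None of the 4 protein disulfide isomerases, which form and rearrange disulfide bonds, passed. P4HB, which is also the beta subunit of collagen prolyl 4-hydroxylase, differed by -0.03 ± 0.13 (SE), with a 95% interval of -0.30 to 0.24. PDIA3, the partner of CALR and CANX, differed by -0.18, PDIA4 by -0.14 and PDIA6 by 0.15, with limma adjusted p from 0.40 to 0.909 for the 4 genes. The probe sets of PDIA4 and PDIA6 had both signs, as had those of HSPA5 and HSP90B1, and none of them passed. PDIA4 was uneven among metastatic tumours, at 11.01 in MET2 and 10.85 in MET4 and at 9.81 in MET3 and 9.89 in MET1, with 10.28 in MET5.

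None of the 9 sensors and transcription factors passed at the chosen probe set, and their median difference was -0.15. XBP1, the factor activated when IRE1 splices its mRNA, came nearest. It read 10.88, 11.62, 10.72, 10.78 and 10.55 in MET1 to MET5 and from 11.19 through a median of 11.57 to 11.63 in non-metastatic tumours. The other 4 metastatic tumours lay below every non-metastatic one, while MET2 read close to the highest of them. XBP1 differed by -0.59 ± 0.16 (SE, limma adjusted p = 0.0516), and by -0.77 without MET2, where it passed (limma adjusted p = 0.00808). The second probe set passed, at -0.62 ± 0.16 (SE, limma adjusted p = 0.0425). Within array set A the differences were -0.50 and -0.58, and neither passed (limma adjusted p = 0.221 and 0.116). The array values do not separate spliced from unspliced XBP1.

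None of the 3 sensors differed between groups beyond its spread. For ERN1 and ATF6 neither group mean was above 7.16, so their values cannot show that the groups had like levels. ERN1 read 5.75, 5.88, 5.78, 5.54 and 6.04 in MET1 to MET5 and from 5.65 through a median of 5.96 to 6.21 in the others, a difference of -0.15 ± 0.12 (SE). EIF2AK3 read 7.48, 7.39, 7.61, 7.94 and 7.16 against 6.93 to 8.21 with a median of 7.92, a difference of -0.28 ± 0.21 (SE). ATF6 read 5.71, 6.21, 5.94, 6.49 and 6.07 against 5.82 to 7.22 with a median of 6.15, a difference of -0.15 ± 0.21 (SE). Their groups overlapped, and their limma adjusted p lay at 0.454, 0.421 and 0.685.

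The effectors of the PERK arm were likewise not different beyond their spread. ATF4, whose translation rises when PERK or related kinases slow protein synthesis, read 10.81, 11.75, 11.55, 11.68 and 11.46 in MET1 to MET5 and from 11.23 through a median of 11.54 to 11.74 in the others. MET1 was the lowest of all tumours and MET2 the highest. The difference was -0.08 ± 0.16 (SE, limma adjusted p = 0.77). DDIT3 (CHOP), a factor of prolonged ER stress, read 8.58, 8.77, 8.36, 8.45 and 8.22 against 8.37 to 9.74 with a median of 8.64, a difference of -0.34 ± 0.20 (SE, limma adjusted p = 0.31). NM7 was the tumour with the highest DDIT3, the highest ATF6 and the highest DNAJB9. TRIB3, a pseudokinase induced by ATF4 and DDIT3, differed by 0.07.

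CREB3L1 and CREB3L2, membrane-bound factors that promote secretory capacity and collagen export, differed by 0.32 ± 0.17 and 0.41 ± 0.17 (SE) and did not pass (limma adjusted p = 0.262 and 0.157). Their differences within array set A were 0.06 and 0.18. Both were higher in the non-metastatic tumours of array set A than of array set B, by 0.67 and 0.46 (limma adjusted p = 0.0116 and 0.0357). In that comparison of 4 against 3 non-metastatic tumours, 6 of the 32 members differed (the others being CALR, DERL2, EDEM2 and EDEM3, all lower in array set A), where 21.4% of all named genes did. Of all named genes 17.1% were higher and 4.29% lower in array set A, against 2 and 4 of the members.

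Of the pair for entry into and exit from the ER, SEC61B, a subunit of the translocation channel, differed by 0.13. SEC24D, the COPII coat subunit that sorts collagen and other cargo for export, had the largest positive difference of all members at their chosen probe sets, 0.82 ± 0.29 (SE, limma adjusted p = 0.113). It read 9.79, 10.32, 10.06, 10.64 and 9.84 in MET1 to MET5 and from 8.28 through a median of 9.43 to 10.07 in the others, so the groups overlapped. Its 4 probe sets were all positive. Within array set A the difference was 0.84 (limma adjusted p = 0.141), and without NM2 it was 0.93 and passed (limma adjusted p = 0.0499).

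Beyond the members, 7 further lists of the pathway were read, with 199 measured genes, of which 11 were lower and 6 higher (limma). Within array set A 6 were lower and 2 higher. As shares of the 15115 named genes, 3.7% were lower and 1.65% higher over all tumours and 2.24% and 0.576% within array set A. Among 23 other ERAD genes 2 were lower. SELENOS, a selenoprotein that ties the derlins to the extracting ATPase VCP, fell by 1.17 ± 0.20 (SE), from 10.73 ± 0.26 (SD, n = 8) to 9.56 ± 0.47 (SD, n = 5), with a limma adjusted p of 0.00591. FBXO6, a ubiquitin ligase subunit that recognises glycoproteins, fell by 0.92 ± 0.18 (SE, limma adjusted p = 0.0121). Both also passed within array set A (-1.05 and -0.98), while only 1 of the 2 probe sets of FBXO6 passed and the other had the opposite sign. The median difference of this list was -0.24, both over all tumours and within array set A.

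Among 38 other folding factors 2 were lower and 0 higher. ERP29, an escort protein of the ER lumen, fell by 0.65 ± 0.12 (SE, limma adjusted p = 0.0109) at the chosen probe set, and all 3 of its probe sets passed. CDNF, the relative of MANF, fell by 0.50 ± 0.13 (SE, limma adjusted p = 0.0431). Both passed within array set A, at -0.58 and -0.45. Of 33 genes of translocation and glycosylation, OSTC of the oligosaccharyltransferase and SSR4 of the translocon fell by 0.60 and 0.53 (limma adjusted p = 0.0382 and 0.0439), and neither passed within array set A (-0.46 and -0.43). Of 31 genes of COPII and COPI transport, SEC24B fell by 0.86 and the cargo receptor LMAN1 rose by 0.79 (limma adjusted p = 0.0321 and 0.0493), and neither passed within array set A. Of the 2 probe sets of SEC24B 1 passed.

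Of 21 other regulators of the unfolded protein response 2 were lower and 1 higher. NFYB, a subunit of the NF-Y complex that binds the ER stress response element beside ATF6, rose by 1.10 ± 0.16 (SE, limma adjusted p = 0.00311) and by 0.99 within array set A (limma adjusted p = 0.0267). CREB3, a membrane-bound factor of the CREB3L family, fell by 0.91 ± 0.18 (SE, limma adjusted p = 0.0125). NFE2L2 (NRF2), a PERK substrate of the oxidative stress response, fell by 1.30 ± 0.29 (SE, limma adjusted p = 0.0243), with 1 of its 3 probe sets passing. CREB3 and NFE2L2 differed by -0.72 and -1.25 within array set A without passing.

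Among 29 genes of the ATF4 and integrated stress response list 3 rose and 1 fell at the chosen probe sets. PHGDH did not pass there (0.53, limma adjusted p = 0.0561), although 4 of its 5 probe sets passed and all 5 were positive. NUPR1, a small stress-induced chromatin protein, differed by -1.58 ± 0.24 (SE), from 11.38 ± 0.33 (SD, n = 8) to 9.80 ± 0.59 (SD, n = 5), with a limma adjusted p of 0.00371, and by -1.35 within array set A (limma adjusted p = 0.0486). The amino acid transporter SLC7A5 rose by 0.56, the mitochondrial folate enzyme MTHFD2 by 1.47 and the lipoprotein receptor VLDLR by 1.28 (limma adjusted p = 0.00988, 0.0164 and 0.0413). Of these 3, SLC7A5 passed within array set A (0.47), but neither of its group means was above 7.16, nor were those of VLDLR. For MTHFD2 the non-metastatic mean of 6.73 was not above it, so the size of its difference is not exact. MTHFD2 and VLDLR each passed at 2 of their 3 probe sets. Of 24 cytosolic and mitochondrial heat shock genes, the heat shock factor HSF2 rose by 0.78 and the co-chaperone DNAJA2 fell by 0.52 (limma adjusted p = 0.038 and 0.0399), and only DNAJA2 passed within array set A (-0.67). Of the 6 probe sets of HSF2 3 passed.

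Markers of other cell types were read beside these results. Of 8 measured B and plasma cell markers, 1 rose (SDC1, 0.57) and 0 fell, 4 of the 8 were not above 7.16 in either group, and the mean level of the list ran from 6.46 to 7.0 in metastatic and from 6.21 to 7.06 in non-metastatic tumours. None of 12 macrophage, 10 T and NK cell, 9 endothelial and 10 skeletal muscle markers passed (limma), with 0, 3, 0 and 3 of them at an unadjusted p under 0.05. Of the 12 mesenchymal markers, DCN, FAP and THY1 passed as lower over all tumours, with differences of -1.28, -1.58 and -1.41, DCN alone passed within array set A, and the mean level of the list ran from 11.32 to 12.10 in metastatic and from 11.54 to 12.25 in non-metastatic tumours. Of 6 epithelial markers KRT8 fell, at levels not above 7.16. Their part in the falls of EDEM2, HERPUD1 and DNAJC3 was not tested.

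The members did not move as 1 block from tumour to tumour. After centring each gene, the mean over the 32 members ran from -0.33 in MET1 to 0.14 in MET4 and from -0.08 in NM8 to 0.25 in NM6. In MET1 6 of the 32 members lay above their own mean, against 22 in MET4 and 26 in NM6. MET4 was the single metastatic tumour with a positive mean, as MET2, MET3 and MET5 lay at -0.04, -0.23 and -0.15. Of the non-metastatic tumours, NM1 (0.22), NM3 (0.06), NM4 (0.05), NM6 and NM7 (0.21) had a positive mean. NM2 (-0.05), NM5 (-0.04) and NM8 had a negative one.

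Among the members, likeness to HSPA5 by Pearson r was highest for PDIA6, HSP90B1 and MANF. PDIA6 had a Pearson r of 0.83 and a Spearman rho of 0.84 over the 13 tumours (permutation p = 0.00027 and 0.00045), the highest r of the 15114 other named genes. HSP90B1 followed with r = 0.74 and rho = 0.76 (permutation p = 0.00281 and 0.00376), and MANF with r = 0.71 and rho = 0.41 (permutation p = 0.00561 and 0.163), at ranks 11 and 18. These 3 were the members with r of at least 0.7, a value reached by 0.132% of all named genes. Fewer members reached it with the mean of a gene's probe sets, so the count depends on the probe set chosen. None of the 3 passed after adjustment over all named genes (adjusted permutation p = 0.92 for each r). The r within array set A was 0.81 for PDIA6, 0.75 for HSP90B1 and 0.86 for MANF. Among the 8 non-metastatic tumours it was 0.84, 0.86 and 0.90. Without MET4 and NM6, the tumours farthest from the median of HSPA5, r was 0.80 and 0.79 for PDIA6 and HSP90B1 but 0.29 for MANF, whose relation rests on those tumours.

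**Figure D4:**
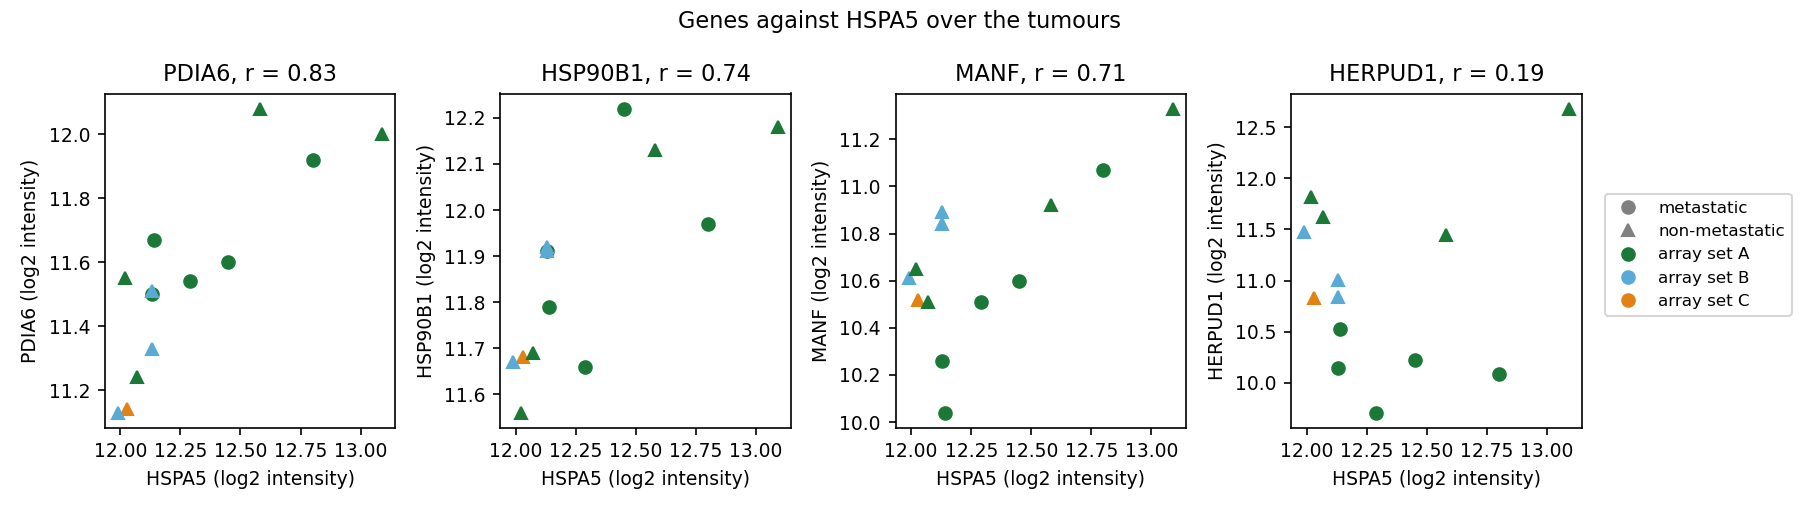
Log2 intensities of PDIA6, HSP90B1, MANF and HERPUD1 (vertical axes) are plotted against that of HSPA5 (horizontal axes), with 1 point per tumour, circles for metastatic and triangles for non-metastatic tumours, coloured by array set. PDIA6 and HSP90B1 rise with HSPA5 across both groups (r = 0.83 and 0.74), while the metastatic tumours lie below the others in HERPUD1 at like levels of HSPA5.

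PDIA4 was the next member by r, with r = 0.60 and rho = 0.55 (permutation p = 0.0291 and 0.054, adjusted p = 0.92 and 0.636). By rank HYOU1 and CREB3L1 came next after PDIA6 and HSP90B1, with rho = 0.72 and 0.66 (permutation p = 0.00782 and 0.0154, adjusted p = 0.597 and 0.628), while their r was 0.31 and 0.54. The 2 strongly lower ERAD genes did not follow HSPA5 over all tumours, with r = 0.19 for HERPUD1 and -0.28 for EDEM2 (permutation p = 0.522 and 0.354). For HERPUD1 r was 0.71 among the 8 non-metastatic tumours, of which NM6 was the highest in both genes, and 0.28 within array set A. Without MET4 and NM6 its r was -0.29. The pooled r of HERPUD1 mixes groups that differ in level, and what part this has in its low value was not tested. The 10 genes outside the list with the highest r were TRIM63, SCUBE3, LINGO3, SLC16A8, SGPL1, HSPB1, PLA2G2C, NPR3, NOTCH1 and PCYT1B, from 0.81 to 0.73. Of these, the small heat shock protein HSPB1 kept an r of 0.83 without MET4 and NM6, while TRIM63, a muscle ubiquitin ligase, dropped to 0.01.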

How the data were processed

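The authors deposited 1 table of processed values per probe set for the 13 arrays, here taken to be log2 intensities from their range (0 to 14.33). The software, background correction and normalization behind them are not stated in the sources. Per the labels' protocols, total RNA was purified on columns, and biotin was incorporated in 1 round of 3′ in vitro transcription. Values were used as deposited, 111 control probe sets were left out, and 42924 were tested. Names came from the platform annotation, of which 31 of 32 member gene identifiers carry the same symbol in the RefSeq table of assembly UU_Cfam_GSD_1.0. No coordinates are given because the builds were not matched.

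Group differences came from limma 3.58.1 in R 4.3.3 (lmFit and eBayes, two-sided, no covariate), and p-values were adjusted by Benjamini-Hochberg across all 42924, with 0.05 as the threshold. The fit was tested on simulated data. With 200 changed probe sets among 42924, 57% of changes of 1 and 92% of changes of 2 (log2) were recovered at these group sizes. The simulated noise was independent between probe sets and held no array sets. These shares therefore show that the fit runs as intended and do not give its power in these data. Array sets were read from the spike-in controls (3′ mean under 6 for array set B, 3′ minus 5′ over 2 for array set C), with thresholds set after the values were seen. Likeness to HSPA5 used 100000 permutations of the samples, two-sided, adjusted over 15114 genes (Python 3.11.15, numpy 2.4.6).

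The members and lists were chosen with earlier results of these data known. Values by tumour (each metastatic tumour, and the lowest, median and highest of the non-metastatic, or all 8 for EDEM2) are given for members that passed over all tumours or within array set A and for 8 sensors, factors and chaperones fixed by name. Those of SEC24D are given in addition, chosen after they were seen. From each wider list, up to 4 passing genes per direction were named. PHGDH is named in addition, chosen after its values were seen. Alternatives were array set A alone, the array set as a block, the ACTB covariate, quantile normalization, a filter on dim probe sets, a replicate block, another moderation, probe set means, and leaving out each sample.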

Additional observations from a re-analysis of the deposited data

Results flagged for a closer look

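ATF6 in NM7 read 7.22, far from the nearest other non-metastatic tumour at 6.44. Neither group mean of ATF6 was above 7.16, the top of the spike-in range without signal. The gap was 0.557 of the group's range, above the limit of 0.526 for 8 samples. This was the single such sample in 64 groups examined (32 members in 2 groups), where chance alone gives about 1 in 20.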

How the results depend on the processing

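The directions of EDEM2, HERPUD1 and DNAJC3 were the same under all 30 alternatives, 9 of which (array set A without 1 tumour) were added after the data were seen. Not all alternatives are separate checks of direction. The filter on dim probe sets and the other moderation leave the differences as they were. The array set as a block gives the differences of array set A, the only set with both groups. The differences of EDEM2 ran from -2.16 to -1.07 and those of HERPUD1 from -1.75 to -1.02 over the 8 alternatives that drop no single tumour. EDEM2 kept its call in all 8, HERPUD1 in 7 (lost with the replicate block, -1.02, limma adjusted p = 0.0683) and DNAJC3 in 2. Of the members without a call, 15 changed sign under at least 1 alternative. Leaving out 1 tumour gave 1 to 4 lower and 0 to 1 higher member genes and 2 to 11 member probe sets, against 3, 0 and 6, with 2 probe sets without MET1 and 11 without NM2. The share of all probe sets that passed moved too, from 1.99% without MET1 to 10.4% without NM2, against 4.9%. The same within array set A gave 1 to 3 lower genes, 0 higher genes and 1 to 6 probe sets, against 2, 0 and 5, while 0.603% (without NM8) to 2.81% of all probe sets passed, against 2.78%. The cause of these shifts was not tested. Same-numbered samples are not paired by the labels, and the correlations of their deviations lay from -0.00857 to 0.0782, with 1 of 5 metastatic samples closest to its own number. With the replicate block 1 member gene was lower (EDEM2) and 2 member probe sets passed, with 1.71% of all probe sets. XBP1 passed with dim probe sets left out and with the mean of its probe sets (limma adjusted p = 0.0361 and 0.0359), and without MET2 or NM2. With the mean of a gene's probe sets 1 member had an r of at least 0.7 with HSPA5, and without 1 tumour 1 to 3 had (1 without NM6). With 5 and 8 arrays the precision is limited, and dim probe sets were judged only against the spike-in range.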

Other observations

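Genes next to the 3 lower members, ordered by the RefSeq table of UU_Cfam_GSD_1.0, were read after the members' values were known. PROCR, the endothelial protein C receptor gene beside EDEM2, fell by 1.37 ± 0.35 (SE, limma adjusted p = 0.0385) over all tumours and did not pass within array set A (-1.37, limma adjusted p = 0.0827). NUP93, a nuclear pore gene 2 places from HERPUD1, fell by 1.08 ± 0.26 (SE, limma adjusted p = 0.0323) and by 1.03 within array set A (limma adjusted p = 0.0404), with 3 of its 6 probe sets past the threshold over all tumours and 5 within array set A. The other named neighbours up to 3 places from HERPUD1 and EDEM2 with a probe set (PSME3IP1, CPNE2, NLRC5, SLC12A3, MT1E, GSS, MYH7B, TRPC4AP and MMP24) did not pass over all tumours (limma), while MT1E, a metallothionein, fell by 3.10 within array set A (limma adjusted p = 0.0211). ABCC4, 3 places from DNAJC3, was 0.54 ± 0.12 (SE) higher (limma adjusted p = 0.024), and CLDN10, DZIP1, UGGT2, HS6ST3 and OXGR1 did not pass. Any link between these neighbours and the members was not tested.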
